A study of Mus musculus with 22 samples.

Results

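The wild-type prefrontal cortex (PFC) and the wild-type ventral striatum (STR) of the mouse were compared gene by gene. The samples were chosen by their labels, which gave 6 of the 22 samples of the series: 3 of PFC and 3 of STR. All 6 were wild type, on a B6x129SvJ background, and 2 months of age, and none carried the *Phf8* deletion that the study as a whole addressed. Total RNA of dissected tissue was made into libraries and sequenced, and the remaining samples were the same regions from *Phf8* knockout mice, embryonic stem cells and neural progenitor cells. Nothing in the labels said that the samples of a region came from separate animals, so the p-values measure the spread between these samples.

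The prefrontal cortex is built mainly of glutamatergic projection neurons arranged in layers, with a minority of GABAergic interneurons. The ventral striatum holds mostly GABAergic spiny projection neurons, which receive dense dopamine input from the midbrain and fall into a direct pathway class with *Drd1* and an indirect pathway class with *Drd2*. Cortical glutamatergic neurons arise from the pallium of the embryo and striatal neurons from the subpallium, and each lineage keeps transcription factors of its origin into adult life.

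The depth was 5898286 to 10148073 reads on genes in a sample, so that 3 reads corresponded to 0.296 to 0.509 CPM (the reads of a gene scaled to the total of its library). Levels are given in CPM, in the order of replicates 1, 2 and 3, and every fold change is PFC against STR. A gene was called when its adjusted p from edgeR's quasi-likelihood test was under 0.05. The first principal component of the 6 samples held 74.8% of the variance and separated the regions. In bulk tissue, fewer cells of a type and less RNA per cell cannot be told apart.

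Markers of the labelled regions were examined first. *Slc17a7* (chr7:45163949-45176142, GRCm38), the main vesicular glutamate transporter of cortical neurons, stood at 462, 399 and 589 CPM in PFC and at 281, 392 and 301 CPM in STR. Every PFC sample was above every STR sample, but the highest STR and the lowest PFC sample lay close together. The gene was 1.49-fold higher in PFC (log2 fold change 0.57, SE 0.16, adjusted p = 0.022). That call was lost without STR replicate 1 (log2 fold change 0.49, adjusted p = 0.072), without STR replicate 3 (0.52, adjusted p = 0.081) and without PFC replicate 3 (0.41, adjusted p = 0.061). It was also lost when all 12 brain samples shared a fit (0.57, adjusted p = 0.46).

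The striatal markers separated the regions further. *Drd1* (chr13:54051183-54055705), the dopamine receptor of direct pathway neurons, stood at 25.2, 19.6 and 20.7 CPM in PFC and at 225, 196 and 232 CPM in STR. It was 9.96-fold higher in STR (log2 fold change -3.32, SE 0.11, adjusted p = 3.2e-08). *Ppp1r1b* (chr11:98348404-98357796), a phosphoprotein that inhibits protein phosphatase in spiny projection neurons, stood at 95.8, 74.3 and 85.1 CPM in PFC and at 260, 259 and 284 CPM in STR, a 3.15-fold difference (adjusted p = 1.5e-06). *Phf8* itself stood at 43.2 to 51.8 CPM in PFC and 49.5 to 56.9 CPM in STR and was not called (log2 fold change -0.13, adjusted p = 0.40).

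**Figure D1:**
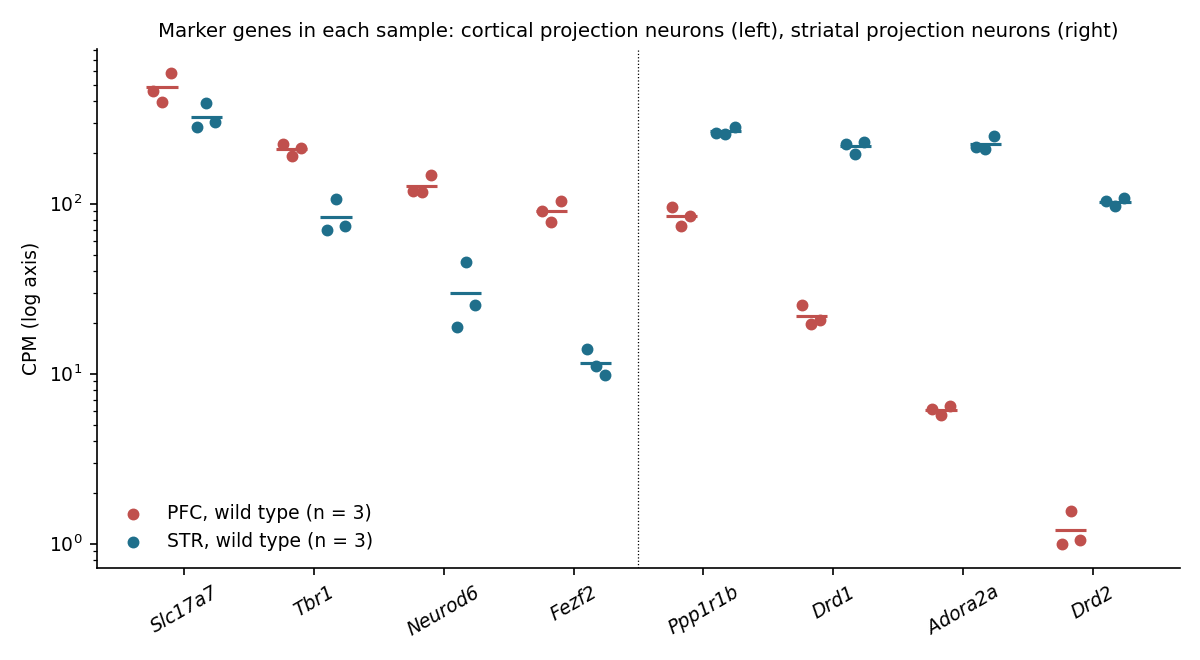
Level of 8 marker genes in each wild-type sample, in CPM on a log axis, with the mean of each region as a bar (n = 3 samples a region). The 3 STR samples of *Slc17a7* and *Tbr1* sit within a few fold of the PFC samples, whereas *Fezf2*, *Adora2a* and *Drd2* are about 8-fold or more apart.

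Each region carried genes listed as markers of the other. Summed over the 20 genes shared by spiny projection neurons, the level was 2045 to 2146 CPM in PFC and 5937 to 6481 CPM in STR, and none of the 20 was at 0 in PFC. Single striatal genes were nearly undetected in PFC, where *Six3* had 3 reads in the 3 samples together, *Isl1* had 2 and *Drd3* had 0. *Tbr1*, a transcription factor of deep cortical layers, stood at 70.0, 107 and 74.2 CPM in STR against 226, 191 and 213 CPM in PFC. STR replicate 2 was the highest STR sample for *Tbr1*, *Neurod6* (45.1 CPM, against 18.8 and 25.3 CPM) and *Slc30a3* (76.3 CPM, against 42.9 and 37.0 CPM). Summed over the 16 genes listed for cortical glutamatergic neurons, none of which was at 0 in STR, the level was 3433 to 4403 CPM in PFC and 2354 to 2818 CPM in STR. Factors of the pallial lineage summed to 1334 to 1569 CPM in STR and 2816 to 3044 CPM in PFC, and those of the subpallial lineage to 749 to 803 CPM in PFC and 1788 to 2103 CPM in STR. The part of these levels in the results was not tested.

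Of 15555 genes tested, 3791 (24.4%) were called, and the counts of each gene list below are to be read against this share. PFC was higher for 2015 of them (13.0% of genes tested) and STR for 1776 (11.4%). Most differences were modest, with a median of 1.59-fold among the genes higher in PFC and 1.70-fold among those higher in STR. A difference beyond 2-fold was seen for 606 genes higher in PFC (3.90%) and 686 higher in STR (4.41%). Tested against a change of 2-fold rather than against none, 218 and 359 genes passed. The largest differences lay mostly on the STR side: beyond 8-fold there were 47 genes higher in PFC and 134 higher in STR, and beyond 32-fold there were 7 and 50. The samples of the regions did not overlap for 1988 of the 2015 genes higher in PFC and 1764 of the 1776 higher in STR. Such separation follows largely from the call itself, and its share over all genes tested was not counted. A fit with the replicate number as a block called 5405 genes, 2836 higher in PFC and 2569 higher in STR. List counts given with the replicate block are to be read against these.

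**Figure D2:**
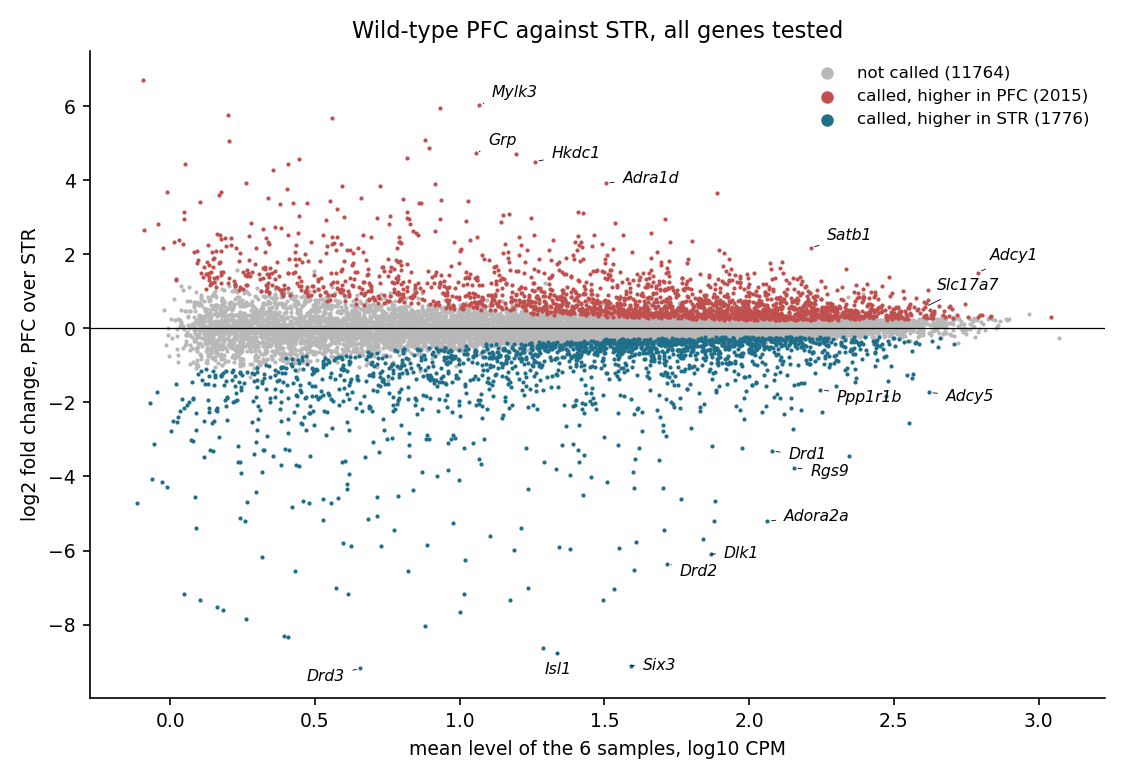
Log2 fold change of PFC over STR against the mean level of the 6 samples (log10 CPM) for the 15555 genes tested, with called genes in colour. Values below -7 belong to genes with very few reads in PFC, where the fitted change depends on a prior count, and the genes beyond 8-fold are more numerous below the line (134) than above it (47).

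The same contrast was available in samples that share no library with these, the *Phf8* knockout PFC and STR (3 of each), where 27.7% of 15538 genes tested were called. Of the 2015 genes higher in PFC, 1440 (71.5%) were called higher in PFC there, making up 67.2% of the 2143 genes so called. Of the 1776 genes higher in STR, 1291 (72.7%) were called higher in STR there, or 59.8% of 2158. Among genes beyond 2-fold, 470 of 606 (77.6%, PFC) and 593 of 686 (86.4%, STR) were called again in the same direction at any fold. Of all genes tested in the knockout samples, 13.8% (PFC) and 13.9% (STR) were called at any fold, and 3.77% and 4.72% beyond 2-fold. How many of the 470 and 593 were beyond 2-fold there was not counted, and 0 genes were called in the opposite direction. *Slc17a7* was not called there (log2 fold change 1.26, adjusted p = 0.16).

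Among the genes with the largest differences and at least 10 CPM in the higher region, those on the STR side included *Six3*, *Isl1*, *Six3os1*, *Dsg1c*, *Lhx8*, *Ndst4*, *Sh3rf2*, *Gpr101* and *Slc10a4*. *Six3* (chr17:85613608-85629302), a homeobox gene needed for striatal neurons of the indirect pathway, had 1842 reads in STR and 3 in PFC, a ratio of 639 per read sequenced (95% counting interval 218 to 3103). Its antisense neighbour *Six3os1* overlaps it, and because the strand setting of the counting was not given in the sources used here, their reads cannot be fully told apart. *Isl1*, a transcription factor of direct pathway and cholinergic neurons, had 1029 reads against 2, a ratio of 536 (148 to 4429). *Lhx8*, a transcription factor of forebrain cholinergic neurons, had a ratio of 246 (67.8 to 2039). All of these intervals cover counting error only.

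On the PFC side they included *Mylk3*, *Krt80*, *Trbc2*, *Clec18a*, *Grp*, *Ovol2*, *Tmem232*, *Hkdc1* and *Adra1d*. *Mylk3*, a myosin light chain kinase, stood at 30.2, 19.9 and 19.1 CPM in PFC and at 0.458, 0.396 and 0.137 CPM in STR. That made it 65.4-fold higher in PFC (log2 fold change 6.03, SE 0.35, adjusted p = 1.2e-06). *Grp*, the precursor of gastrin-releasing peptide, stood at 22.4, 18.4 and 24.8 CPM against 0.343, 1.32 and 0.820 CPM (26.4-fold, adjusted p = 2.1e-06). *Hkdc1*, a hexokinase-like gene, stood at 37.4, 32.4 and 34.8 CPM against 1.14, 1.85 and 1.64 CPM, a difference of 22.6-fold. None of these samples overlapped between regions.

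By adjusted p the order was different. *Rgs9*, *Adora2a*, *Syndig1l*, *Six3* and *Drd2* headed the STR side, each with an adjusted p of 3.3e-09. *Rgs9*, which speeds the switching off of G proteins at striatal dopamine and opioid receptors, stood at 20.9, 19.4 and 17.9 CPM in PFC and at 276, 259 and 263 CPM in STR. *Syndig1l*, a relative of a synapse differentiation gene, had a log2 fold change of -5.20. On the PFC side *Satb1*, *Hkdc1*, *Cpne9* and *Adra1d* were among the first 5. The chromatin organizer *Satb1* stood at 270, 256 and 275 CPM in PFC and at 61.0, 61.6 and 55.5 CPM in STR (4.49-fold, adjusted p = 5.6e-08). The genes named here by fold or by p were all called in the same direction in the knockout samples.

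Genes of cortical projection neurons were higher in PFC to very different degrees. Of 16 genes listed, 14 were called higher in PFC and 1 higher in STR, against 13.0% and 11.4% of all genes tested. The number higher in PFC was 12 without STR replicate 1 or STR replicate 3 and 13 without PFC replicate 3. It was 15 without PFC replicate 2 and 11 with all 12 brain samples in the fit. The number higher in STR was 0 without STR replicate 1, STR replicate 3 or PFC replicate 2. The median log2 fold change of the list was 1.21 (-0.01 over all genes tested). *Neurod6*, a transcription factor of cortical excitatory neurons, stood at 118, 116 and 148 CPM against 18.8, 45.1 and 25.3 CPM (4.30-fold, adjusted p = 3.6e-04). *Emx1*, a homeobox gene of the dorsal telencephalon, was 5.03-fold higher in PFC and *Neurod2* 2.58-fold. *Camk2a*, the kinase subunit abundant in forebrain projection neurons of both regions, stood at 701 to 1008 CPM in PFC and 645 to 734 CPM in STR, and its difference did not pass the test (log2 fold change 0.26, adjusted p = 0.19).

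Layer markers were called in both directions. Of 12 upper layer genes, 7 were called higher in PFC and 2 higher in STR, and of 18 deep layer genes, 7 and 5. *Fezf2*, the determinant of subcortical projection neurons of layer 5, stood at 91.2, 77.6 and 104 CPM in PFC and at 14.0, 11.1 and 9.84 CPM in STR, 7.73-fold apart. *Cux2*, an upper layer homeobox gene, was 2.35-fold higher in PFC. The deep layer genes higher in STR were *Bcl11b*, *Foxp2*, *Syt6*, *Sulf1* and *Nxph4*. *Bcl11b* and *Foxp2* are transcription factors that spiny projection neurons also use, and they were 2.37-fold (129 ± 11.1 against 306 ± 12.4 CPM, SD, n = 3) and 4.11-fold (27.5 ± 4.42 against 112 ± 21.5 CPM) higher in STR. *Otof*, a calcium sensor of vesicle release listed for upper layers, stood at 15.4 to 28.3 CPM in PFC and 75.7 to 106 CPM in STR.

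Spiny projection neuron genes were higher in STR, where 11.4% of all genes tested were called higher. All 20 tested genes shared by both classes were called higher in STR, 17 of them beyond 2-fold, with a median log2 fold change of -1.78. *Ptpn5*, the striatum-enriched tyrosine phosphatase, differed by 1.68-fold (222 ± 8.46 against 373 ± 15.1 CPM). *Arpp21*, a cAMP-regulated phosphoprotein, differed by 1.43-fold (371 ± 36.6 against 528 ± 17.4 CPM).

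The pathway classes were both represented. For the direct pathway 7 of 10 genes tested were called higher in STR and 1 higher in PFC, with a median log2 fold change of -1.71. For the indirect pathway 7 of 8 were called higher in STR, with a median of -3.68. *Drd2* (chr9:49340627-49408177), the inhibitory dopamine receptor of these neurons, stood at 0.990, 1.56 and 1.05 CPM in PFC and at 104, 96.6 and 108 CPM in STR. It was 81.7-fold higher in STR (log2 fold change -6.35, SE 0.15), with no overlap. *Adora2a*, their adenosine receptor, stood at 6.19, 5.75 and 6.49 CPM against 215, 210 and 250 CPM (36.9-fold), and *Gpr6*, a constitutively active orphan receptor, differed by 43.7-fold. The difference between the medians of the classes was not tested.

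Genes of the ventral division were higher in STR as well. All 8 genes listed for the ventral striatum and the islands of Calleja were called higher there, with a median log2 fold change of -3.11 that stayed the same with *Drd3* at its bound. *Drd3*, the dopamine receptor of the islands of Calleja, had 218 reads in STR (11.6, 8.18 and 7.51 CPM) and 0 in PFC, and so was at least 75.7-fold higher in STR against a floor of 3 reads over the group. *Nts*, the neurotensin precursor, stood at 0.619, 1.07 and 1.93 CPM in PFC and at 69.6, 56.1 and 83.7 CPM in STR (61.0-fold). *Dlk1*, an imprinted gene for a Notch ligand homologue, stood at 1.93 to 2.35 CPM against 127 to 162 CPM (68.3-fold). *Cartpt*, the precursor of the CART peptides of the nucleus accumbens, stood at 4.45 to 5.27 CPM against 66.0 to 89.3 CPM (14.8-fold).

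**Figure D3:**
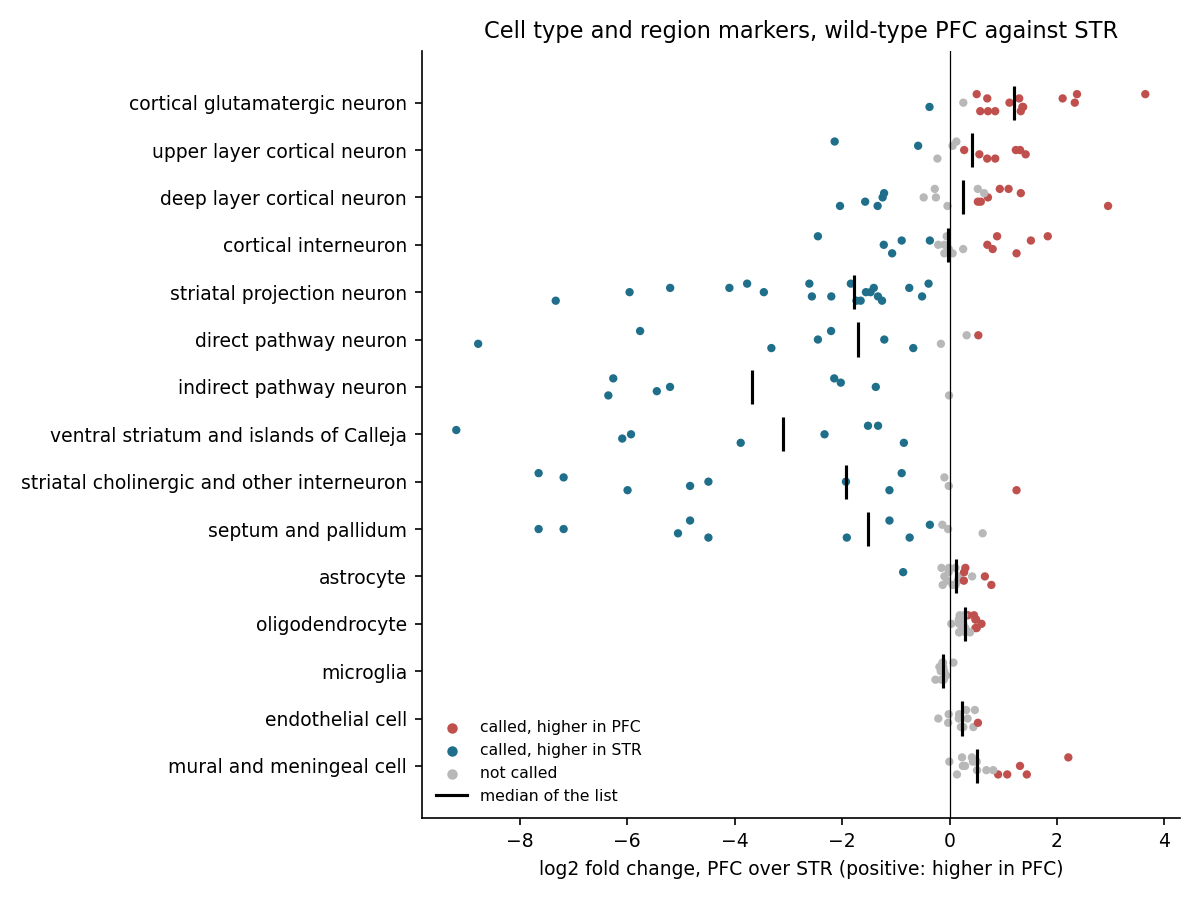
Log2 fold change of PFC over STR for each tested gene of 15 marker lists, with the list median as a black bar. The striatal lists have medians of -1.71 to -3.68, the cortical glutamatergic list has 1.21, and the microglial list has -0.11.

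Interneuron markers differed by subclass. Of 18 genes listed for cortical interneurons, 6 were called higher in PFC and 5 higher in STR (3 without STR replicate 1 or without PFC replicate 1). *Vip*, a peptide of cortical interneurons that target other interneurons, stood at 76.6, 74.9 and 96.2 CPM in PFC and at 20.4, 28.5 and 20.6 CPM in STR (3.55-fold, adjusted p = 1.1e-05). *Pvalb*, the calcium buffer of fast-spiking cells, was 2.37-fold higher in PFC (74.7 ± 10.9 against 31.3 ± 2.05 CPM). *Sst* stood at 70.9 to 109 CPM in PFC and 80.6 to 95.9 CPM in STR, and *Npy* at 48.0 to 58.8 and 45.9 to 58.1 CPM. Neither of these peptides passed the test, and their regions overlapped. *Calb2* (2.10-fold) and *Nos1* (1.85-fold), which mark other interneuron groups, were higher in STR.

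Of 11 genes listed for striatal cholinergic and other interneurons, 8 were called higher in STR (4 of those with at least 10 counts in every sample) and 1, *Pvalb*, higher in PFC. *Chat*, which makes acetylcholine, stood at 0.619, 0.292 and 0.527 CPM in PFC and at 35.6, 23.9 and 31.1 CPM in STR (63.8-fold, adjusted p = 3.0e-07). *Slc5a7*, the choline transporter of the same neurons, stood at 1.95 to 2.47 CPM against 37.3 to 62.5 CPM (22.5-fold). STR replicate 2 was the lowest STR sample for both genes.

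Other tissues that a dissection could include were examined by their markers. Of 12 genes listed for septum and pallidum, 9 were called higher in STR, and their summed level was 278 to 382 CPM in STR and 130 to 159 CPM in PFC. The list shares *Lhx8* and *Slc5a7*, among others, with striatal cholinergic neurons. *Nkx2-1*, a transcription factor of the medial ganglionic eminence and pallidum on the same list, stood at 8.58 to 11.1 CPM in STR and 0 to 0.390 CPM in PFC. For the choroid plexus 3 of 5 genes tested were called higher in STR, and the summed level was 80.4 to 86.0 CPM against 20.5 to 51.5 CPM. *Clic6*, a chloride channel gene, was the largest part of the STR sum, at 53.7, 37.9 and 51.8 CPM against 1.48, 5.95 and 3.86 CPM in PFC. *Ttr*, the transthyretin gene of choroid plexus epithelium, stood at 4.58, 31.3 and 8.20 CPM in STR and at 10.5, 34.5 and 36.9 CPM in PFC and did not pass the test (adjusted p = 0.45). For the hypothalamus 3 of 6 genes tested were called higher in STR, all beyond 2-fold, and the summed level was 184 to 221 CPM in STR and 87.1 to 136 CPM in PFC. The 3 were *Trh* (4.22-fold), *Cartpt* and *Nkx2-1*, the last also in the septum and pallidum list. *Sst* and *Cartpt*, which are also listed for interneurons and for the ventral striatum, made up most of the summed level in both regions. *Oxt* stood at 0.410 to 1.14 CPM in STR and 0.124 to 0.527 CPM in PFC, too low to be tested. The part of these tissues in the results was not tested.

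Glial and vascular lists ranged from no call to calls in PFC. Of 14 microglial genes 0 were called, with a median log2 fold change of -0.11, and the lowest of the 14 was -0.26. With the replicate block, and with all 12 brain samples in the fit, 1 microglial gene was called higher in STR, and DESeq2 called 0. Of 20 oligodendrocyte genes 7 were called higher in PFC, all within 2-fold, and all 20 had a log2 fold change above 0 (lowest 0.03). The number called was 13 when the replicate number entered the model. The 7 calls without the block fell to 3 without STR replicate 1, STR replicate 3 or PFC replicate 2 and to 4 without PFC replicate 3. Among astrocyte genes 5 of 18 were called higher in PFC (2 or 3 without any 1 of STR replicates 1, 2 and 3 or PFC replicates 1 and 2) and *Agt*, angiotensinogen, higher in STR. *Gfap*, the intermediate filament of fibrous astrocytes, stood at 164, 167 and 168 CPM in PFC and at 106, 107 and 77.2 CPM in STR, 1.72-fold apart. Of 12 endothelial genes 1 was called higher in PFC (3 without STR replicate 2 and 4 without PFC replicate 3). Under the replicate block 6 endothelial genes were called higher in PFC and 1 higher in STR. Mural and meningeal genes were called higher in PFC for 5 of 16 genes, 4 of them beyond 2-fold and with a list median of 0.51. Those 5 calls fell to 3 without STR replicate 3 and to 2 without PFC replicate 3. With the replicate block 12 mural and meningeal genes were called higher in PFC. *Lum*, a proteoglycan of fibroblasts, was 4.63-fold higher in PFC (5.77 ± 0.632 against 1.20 ± 0.697 CPM).

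Transcription factors were compared by embryonic lineage, against 13.0% of all genes called higher in PFC and 11.4% higher in STR. Of 22 tested factors of the pallial lineage, 18 were called higher in PFC and 1 higher in STR (3 with the replicate block; 0 without STR replicate 1 or PFC replicate 1, and 2 without PFC replicate 3), with a median log2 fold change of 1.14. Beside *Fezf2* and the *Neurod* genes they included *Nfix*, a nuclear factor of cortical maturation, at 336, 325 and 312 CPM in PFC and 109, 127 and 86.3 CPM in STR (3.01-fold). *Mef2c*, an activity-regulated factor of cortical synapses, was 2.03-fold higher in PFC at a high level (555 ± 55.1 against 273 ± 29.0 CPM).

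Of 27 tested factors of the subpallial lineage, 21 were called higher in STR, with a median log2 fold change of -1.91. *Zfp503*, a repressor needed for direct pathway neurons, stood at 4.70, 5.85 and 2.63 CPM in PFC and at 53.1, 43.3 and 51.1 CPM in STR (10.6-fold). *Dlx5*, a homeobox gene of GABAergic precursors, was 4.53-fold higher in STR, and *Meis2* 2.13-fold. *Foxp1*, which spiny projection neurons share with deep cortical layers, was 1.67-fold higher in STR (147 ± 6.15 against 245 ± 9.81 CPM). *Dlx1* was the exception: it was called higher in PFC (65.1 to 75.1 against 52.8 to 64.0 CPM, log2 fold change 0.31, adjusted p = 0.047), and that call was lost without any 1 of STR replicates 2 and 3 and PFC replicates 1 and 2 (adjusted p up to 0.15).

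Retinoid signalling takes part in striatal development. Of 17 genes of the pathway tested, 7 were called higher in STR and 3 higher in PFC (11.4% and 13.0% of all genes). *Rxrg*, a nuclear receptor that pairs with retinoic acid receptors, stood at 5.44, 3.80 and 4.74 CPM in PFC and at 107, 102 and 127 CPM in STR (24.2-fold, adjusted p = 2.3e-08). *Rarb* (chr14:16430839-16819156), a retinoic acid receptor, stood at 14.2, 15.7 and 13.9 CPM against 131, 124 and 146 CPM (9.11-fold, adjusted p = 2.3e-08). *Crabp1*, which binds retinoic acid in the cytosol, stood at 0 to 0.371 CPM against 13.7 to 16.8 CPM. Going the other way, *Rara*, another retinoic acid receptor, was 2.08-fold higher in PFC (36.8 ± 8.42 against 17.6 ± 3.34 CPM), and *Aldh1a2*, which makes retinoic acid and is abundant in meninges, was 2.71-fold higher in PFC. The part of meninges in that value was not tested.

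The start-site sequences of *Rarb*, both main dopamine receptors and *Slc17a7* are shown, the receptors because they were about 9-fold or more apart and *Slc17a7* because it was the cortical marker examined first. Each runs from 250 bases before to 50 bases after a start site in RefSeq (GRCm38.p6), and both strands were searched for the GC box CCGCCC, the CCAAT box, the TATA box TATAAA, the E-box CAGATG and the DR5 retinoic acid response element. Capitals mark the DR5 element in *Rarb* and GC boxes in the others, and a pair of GC boxes in *Slc17a7* overlap. The window of *Six3* was searched as well and held 3 CCAAT boxes and none of the other elements, and its sequence is not shown. *Rarb* lies at chr14:16575427-16575726 (minus strand), *Drd1* at chr13:54055609-54055908 (minus strand), *Drd2* at chr9:49340153-49340452 (plus strand) and *Slc17a7* at chr7:45163671-45163970 (plus strand).
Rarb: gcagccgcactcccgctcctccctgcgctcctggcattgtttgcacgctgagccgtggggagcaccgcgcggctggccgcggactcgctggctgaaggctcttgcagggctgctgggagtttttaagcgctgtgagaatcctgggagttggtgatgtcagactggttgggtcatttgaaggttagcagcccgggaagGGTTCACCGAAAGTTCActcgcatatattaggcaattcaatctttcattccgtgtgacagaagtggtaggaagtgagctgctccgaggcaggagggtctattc
Drd1: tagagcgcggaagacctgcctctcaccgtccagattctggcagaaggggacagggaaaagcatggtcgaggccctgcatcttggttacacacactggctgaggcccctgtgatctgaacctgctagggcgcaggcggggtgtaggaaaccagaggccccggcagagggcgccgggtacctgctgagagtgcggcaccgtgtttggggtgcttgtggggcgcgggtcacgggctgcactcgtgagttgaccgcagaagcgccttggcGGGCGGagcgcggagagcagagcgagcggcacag
Drd2: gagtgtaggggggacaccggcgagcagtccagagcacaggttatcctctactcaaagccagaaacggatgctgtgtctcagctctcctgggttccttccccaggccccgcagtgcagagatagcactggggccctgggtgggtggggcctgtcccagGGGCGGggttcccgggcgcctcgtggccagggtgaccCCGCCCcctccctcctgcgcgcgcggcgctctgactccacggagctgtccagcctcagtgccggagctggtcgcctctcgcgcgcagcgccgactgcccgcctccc
Slc17a7: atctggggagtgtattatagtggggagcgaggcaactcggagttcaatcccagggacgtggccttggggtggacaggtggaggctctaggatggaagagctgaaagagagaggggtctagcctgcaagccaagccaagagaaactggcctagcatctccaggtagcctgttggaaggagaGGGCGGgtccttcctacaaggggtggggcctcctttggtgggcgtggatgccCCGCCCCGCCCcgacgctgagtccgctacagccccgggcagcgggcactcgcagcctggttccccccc

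Of 32851 start-site windows in the table, 35.7% held a GC box, as did 60.2% of those of genes tested, 45.8% of those of genes more than 2-fold higher in PFC and 48.5% of those more than 2-fold higher in STR. A DR5 element was in 32 of all windows (0.0974%), in 2 of 606 windows of genes more than 2-fold higher in STR in 0 of 565 on the PFC side and in 6 of 14661 of genes tested (0.0409%). The TATA box was in 11.5% of windows on the PFC side and 11.2% on the STR side, against 7.35% of those of genes tested and 13.6% of all windows. These shares are descriptions and were not tested.

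Dopamine receptors were the first step of a cascade that differed at many points. Of 10 genes of dopamine reception, synthesis and transport tested, 6 were called higher in STR (11.4% of all genes) and 0 higher in PFC. *Th*, which makes the dopamine precursor, stood at 4.45 to 5.26 CPM in PFC and 17.6 to 19.7 CPM in STR (3.81-fold). *Gnal*, the olfactory-type G protein subunit that couples striatal dopamine receptors to adenylyl cyclase, stood at 215, 194 and 211 CPM in PFC and at 507, 499 and 557 CPM in STR (2.52-fold, adjusted p = 2.1e-06). Its partner subunit *Gng7* differed by 3.57-fold (128 to 133 against 443 to 502 CPM). *Gnas*, the stimulatory subunit used elsewhere in the brain, stood at 62.8 to 68.5 CPM and 61.8 to 65.5 CPM, and its difference did not pass the test (adjusted p = 0.64).

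The adenylyl cyclases changed places between the regions. *Adcy5*, the main cyclase of spiny projection neurons, stood at 188, 208 and 184 CPM in PFC and at 639, 627 and 663 CPM in STR (3.32-fold, adjusted p = 3.2e-07). *Adcy1*, a calcium-stimulated cyclase, stood at 920, 926 and 886 CPM in PFC and at 318, 385 and 261 CPM in STR (2.83-fold higher in PFC, adjusted p = 1.6e-05). Per kilobase of exon, *Adcy1* was at 72.7 ± 1.70 RPKM and *Adcy5* at 26.9 ± 1.74 RPKM in PFC, and in STR the order was turned, with 25.7 ± 4.99 and 89.5 ± 2.55 RPKM. *Adcy2*, *Adcy6* and *Adcy8* were also called higher in PFC. Catalytic subunits of protein kinase A (*Prkaca*, *Prkacb*) were not called, while the regulatory subunit *Prkar2b* was 1.95-fold higher in STR.

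Phosphodiesterases, which break down cyclic nucleotides, were called higher in STR for 8 of 19 genes tested and higher in PFC for 3 (9 and 6 with the replicate block). *Pde10a*, the phosphodiesterase concentrated in spiny projection neurons, stood at 91.1, 132 and 84.8 CPM in PFC and at 625, 568 and 637 CPM in STR (5.91-fold, adjusted p = 1.4e-06). *Pde1c* was 5.24-fold and *Pde7b* 3.61-fold higher in STR, and *Pde5a*, which acts on cGMP, was 3.45-fold higher in PFC (22.3 to 28.1 against 7.09 to 8.18 CPM). Over the 34 genes of the G protein and cAMP cascade, 9 were called higher in PFC and 8 higher in STR, so that the cascade as a whole was not called in 1 direction.

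**Figure D4:**
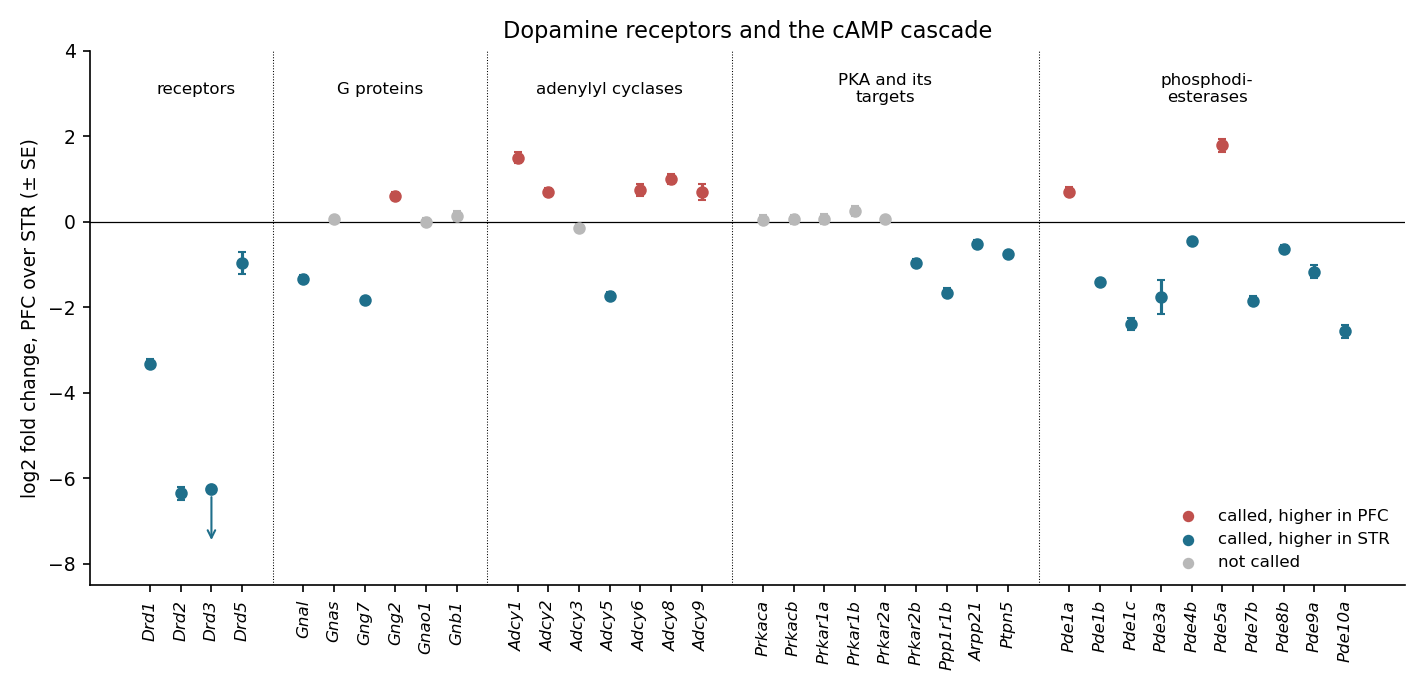
Log2 fold change of PFC over STR (± SE, n = 3 samples a region) for dopamine receptors and members of the cAMP cascade, ordered by role. *Drd3*, with 0 reads in PFC, is drawn at its bound with an arrow, *Adcy1* lies above the line and *Adcy5* below it, and 8 of the phosphodiesterases drawn lie below the line.

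Peptide and opioid genes of spiny projection neurons were higher in STR. Of 12 opioid and tachykinin genes tested 7 were called higher there (11.4% of all genes), all of them beyond 2-fold, 4 were not called and 1, the enkephalin receptor gene *Oprd1*, was called higher in PFC. The median log2 fold change was -2.04. *Oprd1* stood at 63.0, 45.4 and 26.7 CPM in PFC and 27.7, 26.8 and 24.2 CPM in STR, which overlap, and its call was lost without any 1 sample other than PFC replicate 3 (adjusted p up to 0.13). *Penk*, the enkephalin precursor of the indirect pathway, stood at 47.4, 52.3 and 54.6 CPM in PFC and at 211, 227 and 245 CPM in STR (4.43-fold). *Pdyn*, the dynorphin precursor of the direct pathway, differed by 4.61-fold, and *Tac1*, the substance P precursor, by 5.47-fold. Among receptors, *Oprk1*, which binds dynorphin, stood at 5.57 to 8.95 CPM against 56.4 to 66.7 CPM (8.88-fold), and *Tacr1*, which binds substance P, at 2.11 to 3.59 CPM against 40.6 to 52.1 CPM (15.5-fold).

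Monoamine receptors split between the regions by subtype. Among 12 serotonin receptor genes tested, 5 were called higher in STR (3 of those with at least 10 counts in every sample) and 2 higher in PFC. *Htr2c*, an excitatory serotonin receptor, stood at 50.4, 67.6 and 44.8 CPM in PFC and at 178, 216 and 208 CPM in STR (3.66-fold, adjusted p = 6.4e-06). *Htr1d*, an inhibitory receptor, stood at 0.390 to 0.702 CPM against 19.9 to 29.4 CPM (48.3-fold), and *Htr1b*, its close relative, differed by 4.52-fold. *Htr3a*, the ion channel subunit of a class of cortical interneurons, was 2.86-fold higher in PFC. *Htr1a* was not called (log2 fold change -0.20, adjusted p = 0.44), and neither was *Htr2a*, at 15.6 to 20.3 CPM in PFC and 22.8 to 24.5 CPM in STR (adjusted p = 0.058, and 0.025 with the replicate block).

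Of 9 adrenergic receptor genes 4 were called higher in PFC and 3 higher in STR. *Adra1d*, an alpha-1 receptor that raises calcium, stood at 63.7, 59.7 and 56.5 CPM in PFC and at 2.86, 5.41 and 3.69 CPM in STR (15.1-fold, adjusted p = 2.1e-07), and its relative *Adra1b* was 5.75-fold higher in PFC. The other relative, *Adra1a*, was not called (log2 fold change 0.60, adjusted p = 0.11). The 3 alpha-2 receptor genes, which inhibit adenylyl cyclase, were all called higher in STR: *Adra2a* by 2.04-fold, *Adra2b* by 44.0-fold (0.176 to 0.292 against 6.47 to 15.4 CPM) and *Adra2c* by 2.91-fold. *Adrb1* was 1.79-fold higher in PFC. Of 17 genes of acetylcholine receptors and enzymes, 6 were called higher in PFC and 6 higher in STR, with a median log2 fold change of 0.14. Muscarinic receptors were called in both directions, with *Chrm3* 4.39-fold higher in PFC (50.2 to 59.4 against 10.8 to 16.1 CPM), *Chrm4* 1.60-fold higher in STR and *Chrm1* not called (adjusted p = 0.16).

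Genes of GABA and glutamate transmission were called in both directions. Among GABA genes 10 of 22 tested were called higher in STR and 5 higher in PFC. *Gad2*, which makes GABA, stood at 238, 212 and 208 CPM in PFC and at 518, 472 and 557 CPM in STR (2.35-fold, adjusted p = 7.3e-06), and *Slc32a1*, which loads it into vesicles, was 1.98-fold higher in STR. *Gabbr2*, a subunit of the metabotropic GABA receptor, was 1.94-fold higher in PFC. Of 10 genes of metabotropic glutamate reception 4 were called higher in PFC and 2 higher in STR. *Grm2*, a presynaptic autoreceptor, stood at 116, 105 and 97.2 CPM in PFC and at 19.7, 24.2 and 18.9 CPM in STR (5.08-fold, adjusted p = 3.7e-07), and *Grm4* was 2.24-fold higher in STR. Ionotropic glutamate receptor genes were called higher in PFC for 5 of 17 and higher in STR for 4 (2 without any 1 of STR replicates 1 and 3 and PFC replicates 1 and 3).

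Potassium channel genes were called for 29 of 40, with 18 higher in PFC and 11 higher in STR (13.0% and 11.4% of all genes). *Kcna5*, a delayed rectifier, stood at 2.60, 4.19 and 4.92 CPM in PFC and at 76.4, 71.8 and 80.7 CPM in STR (19.8-fold, adjusted p = 6.7e-08). *Kcna4*, an A-type channel, was 2.81-fold higher in STR and *Kcnj2*, an inward rectifier, 2.06-fold. *Kcnj3* and *Kcnj9*, channel subunits opened by G proteins, were 1.97-fold and 2.31-fold higher in PFC, and *Kcnc2*, a channel of fast-spiking interneurons, 2.34-fold (192 ± 3.84 against 82.3 ± 8.05 CPM).

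Immediate early genes, which neurons transcribe within minutes of activity, varied between samples in both regions together. *Fos* stood at 111, 54.8 and 124 CPM in PFC and at 65.8, 33.9 and 77.6 CPM in STR, so that replicate 2 was the lowest in each region and the regions overlapped. The PFC value was 1.68, 1.62 and 1.59 times the STR value of the same replicate number. Without the replicate number in the model the difference in *Fos* did not pass the test (1.61-fold, adjusted p = 0.26), and with the replicate block it did (adjusted p = 1.3e-06). *Arc*, a synaptic protein made on demand, stood at 350, 182 and 443 CPM against 205, 99.6 and 210 CPM (adjusted p = 0.14, and 7.2e-07 with the block).

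Of the 24 immediate early genes 7 were called higher in PFC (13.0% of all genes) and 0 higher in STR, with a median log2 fold change of 0.56. With the replicate block, which called 2836 genes higher in PFC over all genes tested, 18 of the 24 were called higher in PFC. In 20 of the 24 genes the PFC sample was above the STR sample in all 3 pairs, a count not made over all genes. *Ier2* had the largest difference, at 39.7, 21.2 and 41.8 CPM in PFC and 11.0, 8.05 and 10.1 CPM in STR (3.47-fold, adjusted p = 4.6e-04). *Bdnf*, a neurotrophin whose transcription follows activity, was 2.70-fold higher in PFC (106 ± 36.8 against 39.1 ± 7.16 CPM, adjusted p = 8.5e-04). *Jun* was lower in PFC in all 3 pairs by a small amount (61.1 ± 7.83 against 64.2 ± 8.06 CPM) and was not called with or without the block. Sampling time and handling of the animals were not given in the labels, and their part in these values was not tested.

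**Figure D5:**
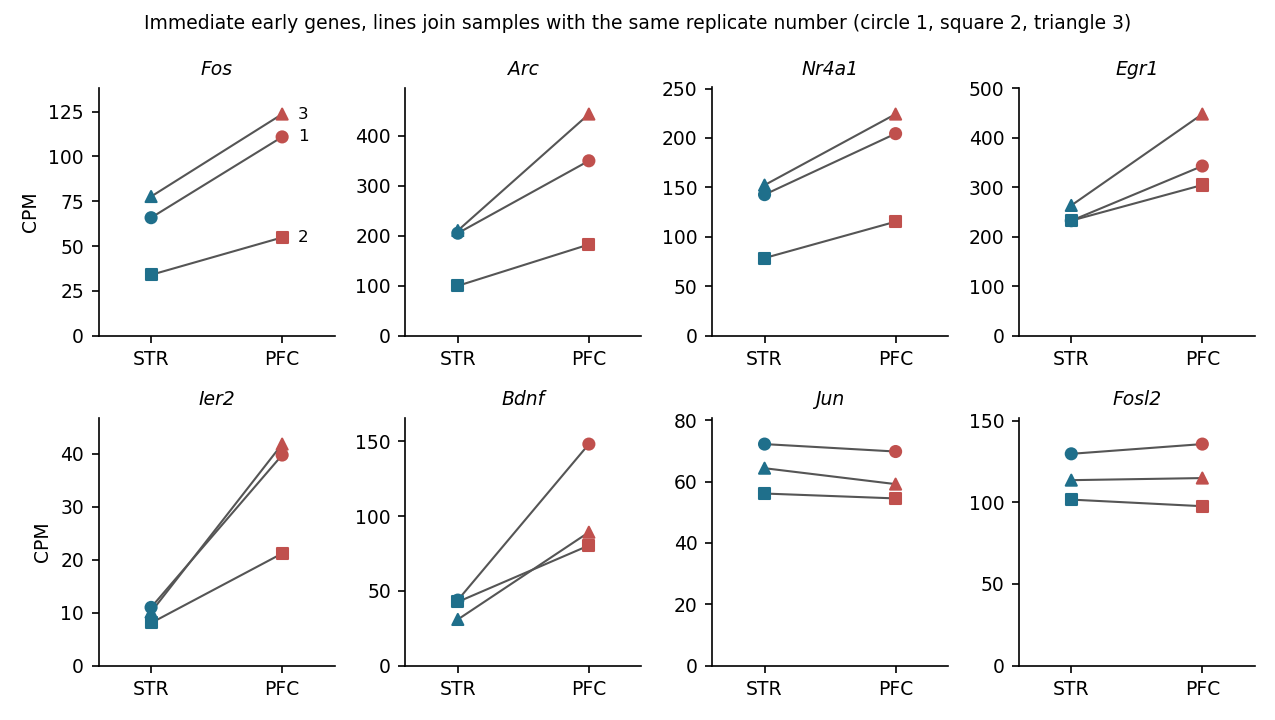
Level in CPM of 8 immediate early genes, with lines joining the PFC and STR samples of the same replicate number (circle 1, square 2, triangle 3). For *Fos*, *Arc* and *Nr4a1* replicate 2 is lowest in both regions and each line rises from STR to PFC, while *Jun* and *Fosl2* stay level.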

How the data were processed

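RNA of 3 wild-type PFC and 3 wild-type STR samples was sequenced by the authors, who aligned the reads to mm10 with STAR and deposited raw read counts per Ensembl release 75 gene from HTSeq. The submitters' processing notes also name CASAVA 1.7. Versions of STAR and HTSeq, and the strand setting, were not given in the sources used here. Summary lines that name no gene were left out. Of these, reads on no feature came to 10.1 to 15.4% of all reads in a file, reads that did not align uniquely to 7.62 to 8.90% and ambiguous reads to 2.52 to 2.66%.

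Counts were tested with edgeR 4.0.16 in R 4.3.3 (TMM scaling, filterByExpr, robust quasi-likelihood test, Benjamini-Hochberg adjustment over all genes tested), and a gene was called at an adjusted p under 0.05. SE is the size of the log2 fold change divided by the square root of F. CPM and RPKM were computed here from the counts. An exact permutation test of 3 samples against 3 cannot go below p = 0.1. Gene symbols and positions came from GENCODE mouse release 21, which matched 37693 of 39179 identifiers and 99.7% of counts.

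The genes named by rule were the 10 largest folds in each direction with at least 10 CPM in the higher region and the 5 smallest adjusted p in each direction, some of which are not reported here. The samples, 43 gene lists and tests were chosen with earlier results of these data known. Same-numbered samples deviated together from their region means (correlation 0.34, 0.18 and 0.36, against -0.34 to 0.06 across numbers). Deviations from a region mean cancel out within that region, so the values across numbers are not independent of those at the same number. The numbers come from the labels, and a fit with the number as a block was an alternative. The others were DESeq2 1.42.0, other size factors and filters, non-robust estimation, a test against 2-fold, all 12 brain samples and leaving out each sample. The alternatives of the knockout comparison, and the lists in the closing observations, were added after seeing the data.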

Additional observations from a re-analysis of the deposited data

How the results depend on the processing

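The number of genes called ranged from 2863 to 3879 without 1 sample and was 3247 with at least 10 counts in every sample and 5405 with the replicate block, against 3791. In 0 of the alternatives did a called gene turn direction. Beyond 2-fold the total fell to 819 (407 higher in STR) with at least 10 counts in every sample, which leaves out genes near 0 in a region, and to 577 (218 higher in PFC and 359 higher in STR) when tested against 2-fold. The log2 fold change of *Slc17a7* was 0.41 to 0.73 without 1 sample and 0.57 (adjusted p = 0.46) with all 12 brain samples, and the cause was not tested. The block made 76 more list members called and lost 0 of 352. The block also changed list counts given above without it, among them the following. Deep layer genes came to 8 higher in PFC and 6 higher in STR, and G protein and cAMP genes to 10 and 9. Potassium channel genes came to 21 and adrenergic receptor genes to 5 higher in PFC, and GABA genes to 11 higher in STR. Leaving out 1 sample lost 23 to 49 of the 352. Genes under about 0.5 CPM are limited by depth.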

Other observations

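Sarcomere genes, listed after their values were seen, were called higher in PFC for 9 of 18 genes tested and higher in STR for 3. *Myl4*, an atrial myosin light chain, stood at 48.5, 40.0 and 50.2 CPM in PFC and at 5.15, 5.67 and 4.78 CPM in STR (log2 fold change 3.14), and *Igfn1*, a gene of muscle Z-discs, at 72.1, 67.9 and 40.7 CPM against 8.70, 10.2 and 6.28 CPM. *Tnni3*, a cardiac troponin, went the other way (log2 fold change -2.55).

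Imprinted genes, also listed after their values were seen, were called higher in STR for 13 of 23 genes tested and higher in PFC for 2. *Peg10*, a retrotransposon-derived gene, stood at 41.3, 51.5 and 38.1 CPM in PFC and at 219, 186 and 258 CPM in STR. *Calcr*, the calcitonin receptor, had 313 reads in STR and 3 in PFC, a ratio of 109 (95% counting interval 36.8 to 530). Allelic origin was not measured.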
